A study of Mus musculus with 16 samples.

Results

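The comparison described here is that of microglia from 5xFAD mice with microglia from WT mice, both with the *Card9* gene intact. Its members are the 4 libraries labelled 5xFAD and the 4 labelled as WT controls, 8 of the 16 bulk RNA-seq libraries of the series, and all genes of the count table, in both directions. Each library holds RNA of CD11b+ cells taken with magnetic beads from the perfused brain of mice aged 20 weeks. The meninges and choroid plexus had been taken off first. The paper names female 5xFAD mice among those obtained for its crosses, and the sex of the sampled mice is not given in the labels used here. WT mice carry no transgene. In 5xFAD mice, transgenes of human origin that bear familial Alzheimer's disease (AD) mutations are driven by the neuronal Thy1 promoter, and amyloid-β (Aβ) accumulates in the brain, so the sorted cells come from a brain with plaques and are not themselves the cells that the promoter targets. The other 8 libraries, from mice labelled Card9-/- and Card9-/-5xFAD, share in the estimate of the spread and give a second comparison of the same transgenes. Nothing in the labels says that the replicates were separate mice, so that p-values measure the spread between libraries.

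Microglia are the resident macrophages of the brain. In the healthy brain they express a homeostatic program, with receptors that sense nucleotides and chemokines. Around Aβ plaques they take up a disease-associated microglia (DAM) program, in which genes of lipid uptake, lysosomal breakdown and secreted factors rise. Integrin αM, the CD11b used for the sort, is shared by macrophages of the brain borders, monocytes and neutrophils.

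The 8 libraries held 5346747 to 11206884 counts on genes (median 7944265) and 19294 to 21863 genes with at least 1 count. All 10 markers of microglia were detected in every library, and their summed expression ran from 15400 to 32900 CPM, counts scaled to the library size in WT and from 16500 to 33700 CPM in 5xFAD. The lowest sum of each genotype was that of replicate 1, which also had the largest shares of mitochondrial counts (1.74% in WT and 1.90% in 5xFAD, against 0.64% to 1.44% in the other 6 libraries) and of ribosomal protein counts (4.14% and 4.12% against 1.49% to 2.98%). Neuron markers summed to 6.66 to 16.2 CPM over the 8 libraries. *App* was expressed at 92.4, 179, 131 and 148 CPM in WT replicates 1 to 4 and at 79, 117, 109 and 158 CPM in 5xFAD (−0.25 (SE 0.36, adjusted p = 0.849) as log2 fold change of 5xFAD over WT, the unit of all changes given here). *Thy1* had 0 to 10 counts per library and was not tested. *Card9*, an adaptor of C-type lectin receptor signaling, was present at 13.6 to 51.4 CPM in WT and 15.6 to 33.5 CPM in 5xFAD (−0.41 (SE 0.45, adjusted p = 0.788)).

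Of 55385 genes listed, 14513 had enough counts to be tested, and 304 passed an adjusted p of 0.1 (2.09% of those tested). In 5xFAD, 228 genes were higher (1.57%) and 76 were lower (0.524%). The rises were larger than the falls. Among the risers the median change was 2.29 on the log2 scale, with 130 genes at 4-fold or more and 29 at 32-fold or more. Among the fallers the median was −1.49, 8 genes fell 4-fold or more, and none fell 16-fold. The median over all genes tested was −0.15, and 38.9% of all genes had a positive change. The 4 libraries of 5xFAD lay wholly above or below the 4 of WT for 225 of the 228 risers and 72 of the 76 fallers, against 8.04% of all genes tested (4.35% above and 3.69% below). The genes were called on these same libraries, so this separation restates the calls and is no further support for them. Same-numbered libraries of WT and 5xFAD had positively correlated deviations from their group means. However, WT replicates 2 and 3 each correlated better with a 5xFAD library of another number. With the replicate number as a block in a fit of only the 8 libraries (called the paired fit below), 3338 of 13243 genes passed, 2341 higher (17.7%) and 997 lower (7.53%). The block in the fit of all 16 libraries gave 228 higher and 78 lower genes (0.537%), and DESeq2 on all 16 libraries called 3.24% of its genes. Counts of list members given below are those of edgeR on all 16 libraries, and DESeq2 is given where it called a member in a direction in which edgeR called none. The paired fit tested fewer genes, and in some lists fewer members than the number given. Its counts stand beside the 17.7% and 7.53% of all genes that it called higher and lower, and no list was tested as a set. Of 82 genes chosen for naming by rule that were called, 25 lost the call when at least 1 of the 16 libraries was left out and 26 lost it with no filter on low counts, in both cases genes with an adjusted p of 0.0167 or more. Leaving out 1 library gave 164 (without WT replicate 4) to 386 genes (without Card9-/- replicate 4).

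**Figure D1:**
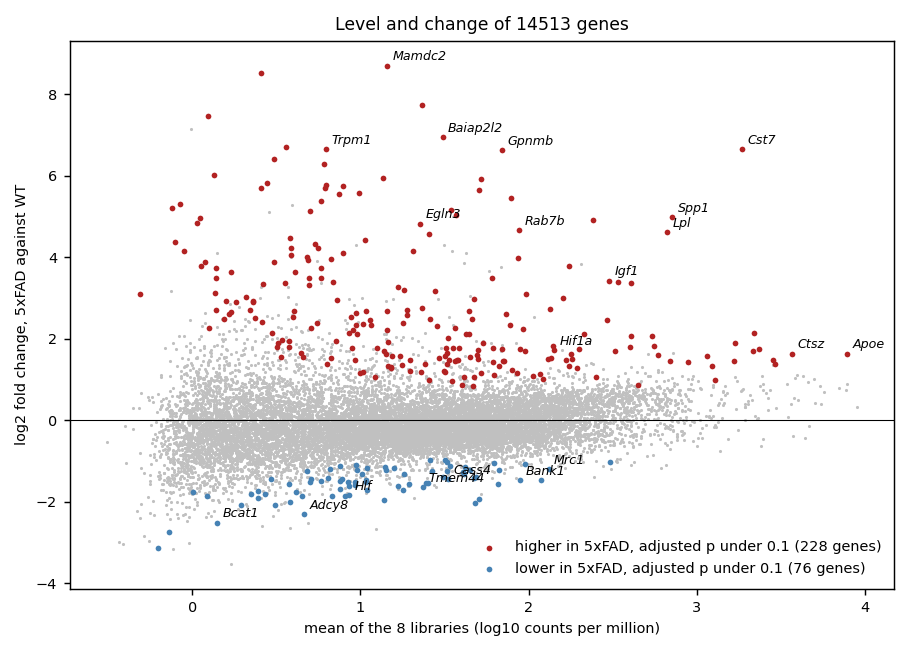
Mean expression of each of the 14513 genes tested over the 8 libraries (x axis, log10 CPM) against its log2 fold change between 5xFAD and WT (y axis), with the 228 genes that rose in red, the 76 that fell in blue and all others in grey. The risers reach 8.70 on the log2 scale and include abundant genes such as *Apoe*, while the fallers do not pass −3.14 (*Spry2*) and lie mostly below 100 CPM.

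The genes called higher took up 1.85% to 2.63% of all counts in WT libraries and 5.60% to 7.32% in 5xFAD libraries. The genes called lower took up 0.253% to 0.362% in WT and 0.0921% to 0.128% in 5xFAD. These shares restate the calls in units of the library and were not tested. Of the 228 risers, 207 are outside a list of 34 well-known DAM genes, and these 207 took up 0.779% to 0.982% of counts in WT and 1.96% to 2.45% in 5xFAD. *Apoe*, the lipoprotein particle protein, alone took up 0.26% to 0.471% in WT and 0.996% to 1.18% in 5xFAD.

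Of the 34 DAM genes, 21 rose and none fell, and their median change was 1.63 against −0.15 over all genes. In the paired fit 32 rose. *Cst7*, the endosomal cysteine protease inhibitor cystatin F (chr2:150570415-150578944, plus strand), had 39.1, 28.1, 51.6 and 27.2 CPM in WT replicates 1 to 4 and 4417, 3818, 4168 and 2229 CPM in 5xFAD, for a change of 6.65 (SE 0.40, adjusted p = 2.03e-07). *Itgax*, the integrin CD11c, was at 11.3, 6.93, 8.82 and 14.3 CPM and 150.4, 143, 144 and 216 CPM (3.98 (SE 0.34, adjusted p = 7.49e-06)). No library of one genotype reached into the range of the other for either gene, although 5xFAD replicate 4 was the lowest for *Cst7* and the highest for *Itgax*. *Igf1*, an insulin-like growth factor, rose from 41.8 to 67.4 CPM to 392 to 739 CPM (3.42 (SE 0.38, adjusted p = 0.000118)). *Trem2*, the lipid-sensing receptor on which the DAM program depends, rose from 1352 to 1792 CPM to 2756 to 5229 CPM (1.38 (SE 0.31, adjusted p = 0.0340)), a call lost when WT replicate 1 and 5xFAD replicate 1 were both left out, without WT replicate 3 or 4 or 5xFAD replicate 3 (adjusted p = 0.103, 0.154 and 0.133), and with no filter on low counts (adjusted p = 0.249).

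The promoter windows of 4 of these risers and of 1 faller are shown because each holds, within 300 bases, a short motif read by a class of transcription factors that respond to signals. They run 5′ to 3′ from 250 bases before to 50 after the start of the gene in RefSeq on GRCm38. Capitals mark the AP-1 motif TGANTCA in *Cst7*, *Itgax*, *Gpnmb* and *Igf1*, and the cAMP response element TGACGTCA and the E-box CATGTG (as its reverse complement) in *Hlf*, a gene that fell. The windows are chr2:150570165-150570464, plus strand (*Cst7*), chr7:128129300-128129599, plus strand (*Itgax*), chr6:49036268-49036567, plus strand (*Gpnmb*), chr10:87860861-87861160, plus strand (*Igf1*) and chr11:90390868-90391167, minus strand (*Hlf*).
Cst7: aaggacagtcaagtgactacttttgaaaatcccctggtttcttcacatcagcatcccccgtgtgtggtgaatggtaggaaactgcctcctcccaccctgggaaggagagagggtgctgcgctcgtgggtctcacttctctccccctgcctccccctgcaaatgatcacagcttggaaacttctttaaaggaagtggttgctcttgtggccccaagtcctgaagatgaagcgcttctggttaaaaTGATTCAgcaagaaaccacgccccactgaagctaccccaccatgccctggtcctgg
Itgax: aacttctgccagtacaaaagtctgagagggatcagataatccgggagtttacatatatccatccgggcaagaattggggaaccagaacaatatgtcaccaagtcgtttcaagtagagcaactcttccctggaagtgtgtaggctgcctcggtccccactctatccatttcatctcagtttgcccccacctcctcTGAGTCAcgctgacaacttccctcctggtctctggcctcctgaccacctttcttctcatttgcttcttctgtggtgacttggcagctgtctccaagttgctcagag
Gpnmb: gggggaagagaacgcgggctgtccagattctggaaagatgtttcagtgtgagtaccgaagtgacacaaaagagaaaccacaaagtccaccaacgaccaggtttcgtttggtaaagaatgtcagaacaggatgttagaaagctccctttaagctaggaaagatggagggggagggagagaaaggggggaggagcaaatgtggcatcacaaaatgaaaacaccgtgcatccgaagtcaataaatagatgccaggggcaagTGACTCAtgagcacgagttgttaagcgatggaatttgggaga
Igf1: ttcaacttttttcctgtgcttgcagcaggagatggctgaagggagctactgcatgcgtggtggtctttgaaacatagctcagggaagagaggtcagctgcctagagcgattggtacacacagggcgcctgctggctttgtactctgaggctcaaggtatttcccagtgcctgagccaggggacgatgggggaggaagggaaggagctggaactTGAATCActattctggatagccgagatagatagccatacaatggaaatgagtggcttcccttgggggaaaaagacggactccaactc
Hlf: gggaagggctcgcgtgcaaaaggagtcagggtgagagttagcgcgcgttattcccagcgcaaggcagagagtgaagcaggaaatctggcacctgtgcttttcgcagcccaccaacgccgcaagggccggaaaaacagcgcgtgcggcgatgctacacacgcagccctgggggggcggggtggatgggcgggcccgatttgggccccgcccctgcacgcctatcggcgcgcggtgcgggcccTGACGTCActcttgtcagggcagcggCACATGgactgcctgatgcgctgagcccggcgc

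These 5 were picked after their letters were seen. Windows were found for 173 of the 228 risers, 54 of the 76 fallers and 10037 of the 14513 genes tested, some with more than 1 start. On either strand, TGANTCA was in 15 of the 173 risers (8.67%), 4 of the 54 fallers (7.41%) and 6.22% of all. The E-box CACGTG, read by MiT/TFE and other basic helix-loop-helix factors, was in 13.3% of risers, 5.56% of fallers and 11.8% of all. GAGGAAGT, a core of the sites of the macrophage factor PU.1, was in 4.62%, 11.1% (6 genes) and 4.03%, and TGACGTCA was in 2.31%, 5.56% and 3.58%. No share was tested, and a match of letters is not a site that is known to be bound.

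Some genes of lipid handling rose. Of 23 tested genes of lipoprotein and lipid uptake, 6 rose and none fell by edgeR (median 0.62, with 7 negative changes), while DESeq2 called 7 higher and 2 lower and the paired fit 13 higher and 3 lower. *Lpl*, the lipase that frees fatty acids from lipoproteins, had 43.7, 60.9, 53.2 and 52 CPM in WT and 904, 1487, 1290 and 1457 CPM in 5xFAD (4.61 (SE 0.33, adjusted p = 7.35e-07)). The fatty acid carrier *Fabp3* had 2.64, 2.23, 0.882 and 1.07 CPM and 169, 95.4, 83.5 and 60.7 CPM (5.91 (SE 0.53, adjusted p = 9.20e-06)), and its relative *Fabp5* rose from 6.31 to 37.9 CPM to 169.7 to 847 CPM (4.91 (SE 0.87, adjusted p = 0.00613)). *Ch25h*, which makes 25-hydroxycholesterol, rose from 1.58 to 5.13 CPM to 82.9 to 188 CPM (5.45 (SE 0.59, adjusted p = 8.80e-05)). For each of the 4 the groups did not overlap, but the spread within 5xFAD differed: 5xFAD replicate 1 was the highest for *Fabp3* and *Fabp5* and the lowest for *Lpl*. *Nceh1*, a hydrolase of cholesterol esters that was on none of the lists and is named after its values were seen, rose from 10.4 to 25 CPM to 109 to 139.5 CPM (2.62 (SE 0.33, adjusted p = 0.000388)).

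Among 24 tested genes that synthesize cholesterol and fatty acids, *Acaca* alone was called higher by edgeR, against 3 by DESeq2. It rose from 8.80, 1.97, 3.75 and 5.88 CPM in WT to 49.1, 30.7, 27.7 and 23.1 CPM in 5xFAD (2.69 (SE 0.39, adjusted p = 0.00136)). *Acaca* encodes acetyl-CoA carboxylase, which commits carbon to fatty acid synthesis. Changes were positive for 21 of the 24 (median 0.68), and 16 rose in the paired fit, while none fell.

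Among proteases and their inhibitors, 4 of 16 cathepsins and cystatins rose and none fell (median 0.99), and 11 rose in the paired fit. Beside *Cst7*, these were *Ctse* (30.1 to 76.3 to 306 to 788 CPM; 3.39 (SE 0.48, adjusted p = 0.00103)), an endosomal aspartic protease, and *Ctsl* and *Ctsz*, lysosomal cysteine proteases. *Ctsl* had 610.4, 1155, 1424 and 882 CPM in WT and 3269, 3549, 3890 and 2401 CPM in 5xFAD (1.69 (SE 0.40, adjusted p = 0.0450)). *Ctsz* had 878, 2145, 2535 and 1669 CPM and 4524, 6168, 6922 and 4733 CPM (1.63 (SE 0.42, adjusted p = 0.0720)). WT replicate 1 was the lowest library for both, and neither call held without both libraries numbered 1. Nor was *Ctsz* called without any 1 of the 8 libraries compared (adjusted p = 0.107 to 0.255). *Ctsl* was not called without WT replicate 1, 2 or 4 or without 5xFAD replicate 2 or 3 (adjusted p = 0.115 to 0.189). Of 33 lysosomal hydrolases, membrane proteins and proton pump subunits, 4 rose and none fell (median 0.29), and in the paired fit 14 rose and 1 fell. The largest of these rises was that of *Atp6v0d2*, a membrane subunit of the proton pump known from osteoclasts (0.704, 0.0856, 0.552 and 0.321 CPM in WT and 13.5, 33, 14.2 and 16.1 CPM in 5xFAD; 5.58 (SE 0.64, adjusted p = 0.000163)). Other pump subunits on the list, such as *Atp6v1a* (0.25, adjusted p = 0.799) and *Atp6v0d1* (0.25, adjusted p = 0.800), did not pass. *Gla*, α-galactosidase, rose from 5.81 to 9.93 to 28.6 to 58 CPM (2.47 (SE 0.37, adjusted p = 0.00136)), and the membrane proteins *Cd63* (1.90 (SE 0.36, adjusted p = 0.0105)) and *Cd68* (1.48 (SE 0.38, adjusted p = 0.0716)) rose, *Cd68* not without the libraries numbered 1. The tetraspanin *Cd9*, among the risers of highest CPM, had 669, 1144, 1500 and 1025 CPM in WT and 3481, 3811, 4475 and 2715 CPM in 5xFAD (1.74 (SE 0.43, adjusted p = 0.0547)), a call with the same limit. Without WT replicate 1, 2 or 4 or without 5xFAD replicate 1, 2 or 3, neither *Cd68* nor *Cd9* was called (adjusted p = 0.112 to 0.259). The pseudogene *Cd63-ps* was also called (2.11), and reads of *Cd63* and its copy may have been split between them. *Rragd*, a Rag GTPase of the lysosome surface, and *Gabarap*, a protein of the autophagosome membrane, are on none of the lists and are named after their values were seen; they changed by 2.38 (SE 0.37, adjusted p = 0.00185) and 0.87 (SE 0.23, adjusted p = 0.0886).

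In glycolysis and the hypoxia response, 4 of 27 genes rose and 1 fell, with a median of 1.00, the second highest of the 33 lists. In the paired fit 18 rose and 2 fell. *Hif1a*, the oxygen-regulated transcription factor, had 57.2, 74.1, 55.4 and 79.9 CPM in WT and 229, 191, 184 and 269.8 CPM in 5xFAD (1.71 (SE 0.30, adjusted p = 0.00641)). *Egln3*, the prolyl hydroxylase that marks HIF proteins for breakdown and is itself one of their targets, had 0, 1.71, 1.43 and 2.78 CPM and 20.2, 57.9, 52 and 45.8 CPM (4.82 (SE 0.71, adjusted p = 0.00136)). The glycolytic enzymes *Tpi1* (1.80 (SE 0.47, adjusted p = 0.0831)) and *Aldoa* (1.44 (SE 0.39, adjusted p = 0.0967)) rose, whereas *Pfkp*, the platelet isoform of phosphofructokinase, fell from 11.6 to 14.9 to 2.34 to 6.67 CPM (−1.52 (SE 0.32, adjusted p = 0.0203)). The calls of *Tpi1*, *Aldoa* and *Pfkp* were lost without both libraries numbered 1, and with no filter on low counts (adjusted p = 0.157, 0.306 and 0.137). Those of *Tpi1* and *Aldoa* were also lost without any 1 of the 8 libraries compared (adjusted p = 0.103 to 0.313). Other enzymes of glycolysis did not pass: *Gapdh* had a change of 1.27 (adjusted p = 0.265), *Hk2* one of −0.01 and *Pfkm* one of −0.48 (adjusted p = 0.673). *Arnt2*, a partner of HIF proteins that was named after its values were seen, rose from 0.428 to 0.749 to 4.52 to 14.2 CPM (3.64 (SE 0.55, adjusted p = 0.00166)). In amino acid metabolism 2 of 23 genes rose and 1 fell (median 0.00). Of 22 tested in the paired fit 3 rose and 2 fell, near its shares over all genes (17.7% and 7.53%). *Psat1*, of serine synthesis, rose from 18.5 to 32.8 to 72.2 to 155 CPM (2.34 (SE 0.34, adjusted p = 0.00136)) and *Kynu*, of the kynurenine pathway, from 0.528 to 1.88 to 2.86 to 5.94 CPM (2.15 (SE 0.43, adjusted p = 0.0157)). *Bcat1*, which transfers the amino group of branched-chain amino acids, fell from 1.94, 2.74, 2.32 and 2.57 CPM in WT to 0.303, 0.685, 0.360 and 0.272 CPM in 5xFAD (−2.52 (SE 0.48, adjusted p = 0.0119)).

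Secreted signals formed another part of the rise. Of 23 growth and matrix factors, 7 rose and none fell (median 0.60), DESeq2 called 1 lower, and in the paired fit 10 rose and 1 fell. *Gpnmb*, a glycoprotein shed by phagocytic macrophages, had 0.352, 1.80, 2.98 and 0.214 CPM in WT and 69.2, 231, 128 and 124 CPM in 5xFAD (6.63 (SE 0.76, adjusted p = 0.000147)). *Spp1*, osteopontin, rose from 14.8 to 78 to 841 to 1761 CPM (4.99 (SE 0.68, adjusted p = 0.000691)). *Lox*, which crosslinks collagen and elastin, was close to silent in WT (0.528, 0, 0.110 and 0.321 CPM) and present in all 5xFAD libraries (13.9, 10.3, 11 and 13.8 CPM; 5.77 (SE 0.88, adjusted p = 0.00168)). Of 28 chemokines and cytokines, 3 rose and none fell (median 0.03), and 10 rose and 3 fell in the paired fit. These were *Ccl6* (558 to 1177 to 2271 to 4240 CPM; 2.13 (SE 0.34, adjusted p = 0.00299)), *Cxcl14* (1.11 to 3.70 to 24.6 to 75.2 CPM; 4.15 (SE 0.79, adjusted p = 0.0109)) and *Cxcl16*, a membrane-bound chemokine and scavenger receptor (1.28 (SE 0.35, adjusted p = 0.0967)). The last was lost without the libraries numbered 1, and also without any 1 of the 8 libraries compared (adjusted p = 0.126 to 0.314). Further secreted factors outside the lists, named after their values were seen, were *Dkk2*, an antagonist of Wnt signaling (0.107 to 0.528 to 28.6 to 76.7 CPM; 7.73 (SE 1.14, adjusted p = 0.00136)), *Cck*, the precursor of the peptide cholecystokinin (0.428 to 4.05 to 19.2 to 147 CPM; 5.15 (SE 0.78, adjusted p = 0.00164)), and the fibroblast growth factor *Fgf1* (2.35 (SE 0.35, adjusted p = 0.00136)).

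Genes that shape the actin cytoskeleton and the cell surface held some of the clearest changes. Of 24 genes of actin nucleation and membrane curvature, 4 rose and none fell (median 0.14), and 11 rose in the paired fit. *Baiap2l2*, an I-BAR protein that bends membranes, had 0.704, 0.428, 0.331 and 0.535 CPM in WT and 45.8, 72.7, 54.9 and 71.1 CPM in 5xFAD (6.94 (SE 0.44, adjusted p = 2.03e-07)). *Actr3b*, an isoform of an Arp2/3 subunit, had 0.352, 0.342, 0.772 and 0.214 CPM and 17.4, 28, 18.4 and 42.9 CPM (5.94 (SE 0.51, adjusted p = 7.49e-06)). Both were below 1 CPM in every WT library and above 17 CPM in every 5xFAD library. *Myo1e*, a myosin of phagocytic cups, and *Capg*, which caps actin filaments, changed by 2.24 (SE 0.31, adjusted p = 0.000894) and 2.47 (SE 0.35, adjusted p = 0.00103). Of 21 sulfation and glycosaminoglycan enzymes, 6 rose and none fell, although the median of the list was −0.10, and 6 rose and 2 fell in the paired fit. These included the sulfotransferases *Chst2* (2.64, 1.71, 1.99 and 1.93 CPM in WT and 61.4, 34.8, 49.5 and 49.3 CPM in 5xFAD; 4.57 (SE 0.39, adjusted p = 7.49e-06)) and *Chst11* (1.19 (SE 0.27, adjusted p = 0.0312)), and *Sulf2*, which removes sulfate from heparan sulfate (1.77 (SE 0.37, adjusted p = 0.0202)). The rise of *Chst11* was not called without WT replicate 2, 3 or 4 or without 5xFAD replicate 3 (adjusted p = 0.105 to 0.121). *Chst3* had 2 counts in all WT libraries together and 40 in 5xFAD, a ratio of 26.7 (95% counting interval 6.93 to 228).

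Receptors moved in both directions. Of 19 TREM and C-type lectin receptors, 3 rose and 1 fell (median −0.53), and 5 rose and 6 fell in the paired fit. *Clec7a*, the β-glucan receptor dectin-1 that signals through CARD9, rose from 53.7 to 92.3 to 592 to 883 CPM (3.37 (SE 0.37, adjusted p = 0.000101)), and *Treml2* rose (1.29 (SE 0.27, adjusted p = 0.0198)). *Mrc1*, the mannose receptor, had 146, 176, 162 and 248 CPM in WT and 57, 85, 83.3 and 93.8 CPM in 5xFAD (−1.20 (SE 0.28, adjusted p = 0.0369)), without overlap but not as a call once both libraries numbered 1 were left out. Among 19 inhibitory and checkpoint receptors, *Pdcd1* (PD-1) rose from 4.05 to 15.8 to 37.6 to 161 CPM (3.48 (SE 0.63, adjusted p = 0.00693)) and *Cd22* from 8.81 to 12 to 19.1 to 35.5 CPM (1.48 (SE 0.30, adjusted p = 0.0184)). In the same family of sialic acid receptors as *Cd22*, *Siglecg* fell from 11.6 to 19.9 to 4.11 to 7.28 CPM (−1.52 (SE 0.34, adjusted p = 0.0315)). This fall was not called without 5xFAD replicate 2 or 4 (adjusted p = 0.127 and 0.158). In the paired fit of this list, 7 rose and 5 fell. *Cd5*, an inhibitory scavenger receptor of lymphocytes named after its values were seen, rose from 1.76, 0.428, 0.552 and 1.18 CPM in WT to 7.13, 12.6, 10.1 and 12.9 CPM in 5xFAD (3.48 (SE 0.43, adjusted p = 0.000313)). T or NK cell markers summed to 61.0 to 393 CPM in WT and 45.4 to 208 CPM in 5xFAD, and B cell markers to 439 to 1200 CPM and 504 to 1090 CPM. The median was 202 CPM in WT and 130 CPM in 5xFAD for the T or NK cell sum, and 944 CPM and 1010 CPM for the B cell sum. Their part in these receptors was not tested.

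Of 13 purinergic receptors and ectonucleotidases, the adenosine receptor *Adora1* alone was called (0.528, 0.257, 0.331 and 0.428 CPM in WT and 4.55, 3.56, 5.58 and 9.26 CPM in 5xFAD; 3.89 (SE 0.60, adjusted p = 0.00195)), and the list had a median of −0.24, with 3 higher and 1 lower in the paired fit. *P2ry12*, the nucleotide receptor that marks homeostatic microglia, was at 2033 to 6306 CPM and 2713 to 5301 CPM (−0.14 (SE 0.41, adjusted p = 0.931)). Of 29 other G protein-coupled receptors, 1 rose and 3 fell (median −0.54), and 4 rose and 12 fell in the paired fit. The proton-sensing *Gpr65* rose from 12.9 to 18.4 to 33.1 to 52.3 CPM (1.52 (SE 0.24, adjusted p = 0.00260)). *Ednrb*, an endothelin receptor, had 13.9, 27, 28.8 and 40.5 CPM in WT and 5.46, 8.64, 8.09 and 11.2 CPM in 5xFAD (−1.72 (SE 0.34, adjusted p = 0.0149)), and *Ptger3*, a prostaglandin E2 receptor, had 7.04, 18.2, 21.8 and 19.7 CPM and 3.64, 5.35, 5.22 and 6.26 CPM (−1.71 (SE 0.39, adjusted p = 0.0349)). The fall of *Ptger3* was not called without WT replicate 2, 3 or 4 or without any 1 of the 5xFAD libraries (adjusted p = 0.103 to 0.130). With no filter on low counts its adjusted p was 0.120. *Hcar2*, a receptor for niacin and ketone bodies that was on none of the lists and is named after its values were seen, rose from 7.38 to 25.5 to 44.6 to 106 CPM (2.47 (SE 0.52, adjusted p = 0.0215)). Of 21 ion channel genes, the inward rectifier *Kcnj2* rose (2.11 (SE 0.32, adjusted p = 0.00174)) and the channel subunit *Kcne3* fell (−1.81 (SE 0.40, adjusted p = 0.0312)), with 5 in each direction in the paired fit. *Kcne3* was not called without WT replicate 3 or 4 or without 5xFAD replicate 2 or 4 (adjusted p = 0.104 to 0.120).

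**Figure D2:**
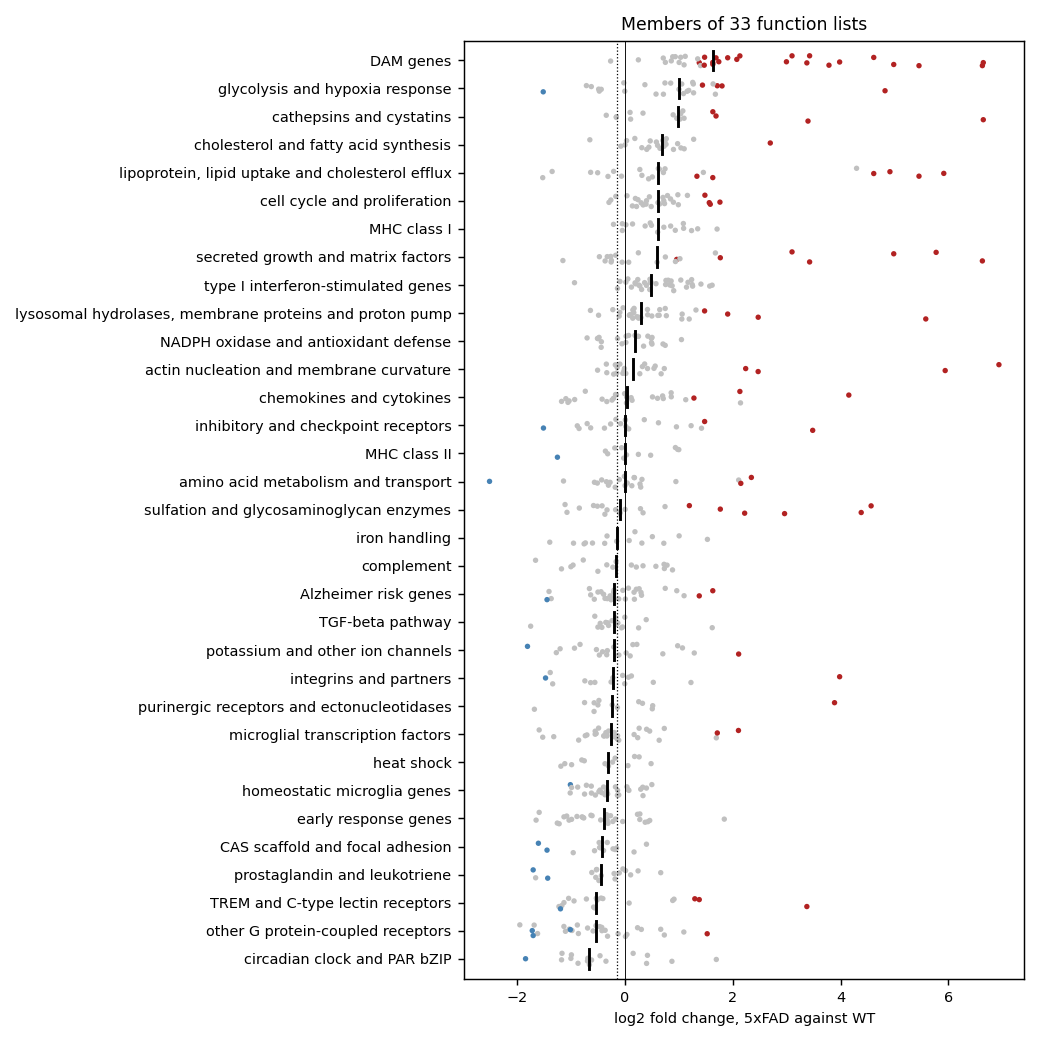
Log2 fold change between 5xFAD and WT (x axis) of each tested member of 33 gene lists (rows, ordered by median), with genes that rose in red, genes that fell in blue, all others in grey and the median of each list as a black bar; the dotted line is the median of all genes (−0.15). DAM genes have the highest median (1.63), followed by glycolysis and hypoxia (1.00) and cathepsins and cystatins (0.99), while circadian genes have the lowest (−0.66).

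The 33 lists together cover only 668 of the 14513 genes tested, so most genes, called or not, lay outside them. Of the 228 risers 59 were in the lists and 169 outside, and of the 76 fallers 14 and 62. The share inside was thus larger among the calls than among all genes, but the lists were chosen with earlier results of these data known. The 8 risers of lowest p outside the lists had little in common by known function. *Rab7b*, a GTPase of late endosomes, was at 5.81, 7.53, 5.63 and 7.81 CPM in WT and 90.7, 211, 175 and 201 CPM in 5xFAD (4.65 (SE 0.42, adjusted p = 9.71e-06)). *Tcap*, the titin cap protein of muscle, had 2.99, 1.71, 2.21 and 1.93 CPM and 101, 49.4, 75.5 and 63.1 CPM (5.04 (SE 0.56, adjusted p = 0.000117)). *Cspg4*, the NG2 proteoglycan known from oligodendrocyte precursors and pericytes, had 0, 0.171, 0.221 and 0.428 CPM and 12.7, 9.32, 8.45 and 17.7 CPM (5.70 (SE 0.67, adjusted p = 0.000185)). In all 3 genes every 5xFAD library was at least 10 times as high as the highest WT library. Oligodendrocyte markers summed to 231 to 944 CPM in WT and 192 to 838 CPM in 5xFAD, and pericyte markers to 5.52 to 10.7 CPM and 3.18 to 7.37 CPM. The others were the potassium leak channel *Kcnk9*, the cation channel *Trpm1*, the vesicle zinc transporter *Tmem163* (0.171 to 0.352 to 9.10 to 15.8 CPM; 5.38 (SE 0.66, adjusted p = 0.000287)), *Mamdc2* and *A930002C04Rik*.

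**Figure D3:**
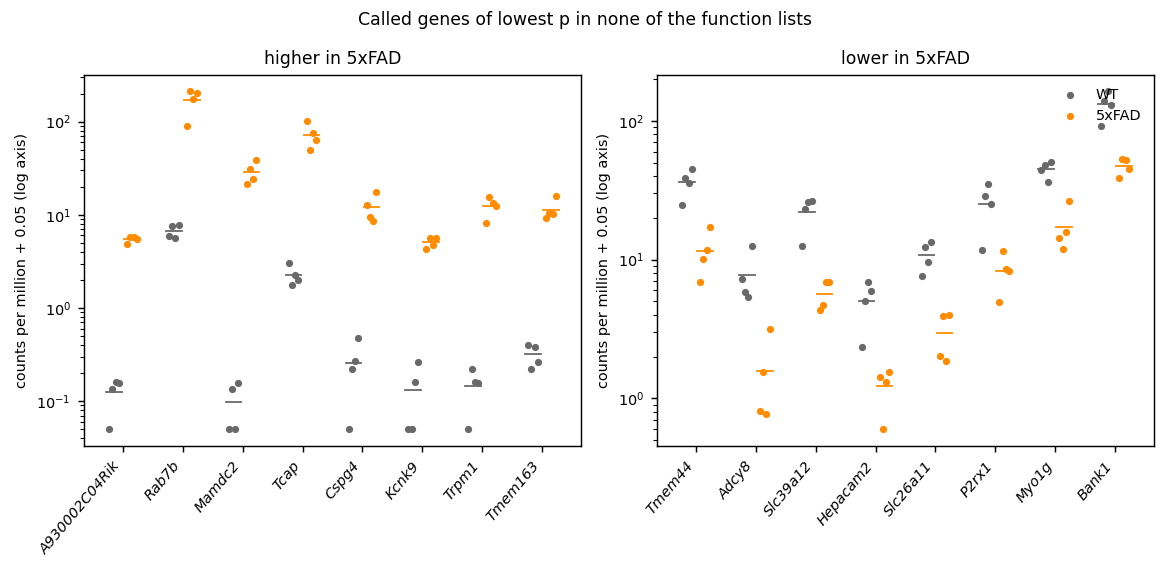
Expression in each library (y axis, CPM + 0.05 on a log axis) of the 8 risers (left) and 8 fallers (right) of lowest p that are in none of the 33 lists, with WT in dark grey, 5xFAD in orange, 1 point per library and the mean as a line. In all 16 genes the 2 genotypes do not overlap, and 6 of the 8 risers are below 1 CPM in every WT library.

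Part of the rise was in genes that WT microglia hardly express. Of the 228 risers, 64 (28.1%) had a WT mean below 1 CPM, against 3.98% of all genes tested, and their 5xFAD means ran from 0.867 to 61.1 CPM (median 5.60). Such genes entered the test only through the libraries in which they are high, so this share is a description. Of the 64, 58 are in none of the lists, as are most of the genes tested. *Mamdc2*, a proteoglycan with MAM domains (chr19:23302609-23448442, minus strand), had 2 counts in all WT libraries together and 21.2, 30.8, 24.3 and 38.5 CPM in 5xFAD replicates 1 to 4, 523 times as high (95% counting interval 144 to 4320). *Yipf7*, of a family of Golgi membrane proteins, had 0 counts in all 4 WT libraries and 7.43, 3.84, 6.30 and 3.0 CPM in 5xFAD, which was at least 59.6-fold higher against a floor of 3 counts over the WT group. *Kcnk9* had 3 WT counts and 4.25, 5.62, 4.68 and 5.58 CPM in 5xFAD, a ratio of 60.5 (20.3 to 297), and *A930002C04Rik*, an antisense transcript (chr13:47143942-47148670, minus strand), had 3 WT counts and 4.85, 5.76, 5.76 and 5.45 CPM, a ratio of 65.0 (21.8 to 319). *Trpm1*, known from melanocytes and retinal cells, rose from 0 to 0.171 to 8.19 to 15.3 CPM (6.66 (SE 0.81, adjusted p = 0.000287)). Named after their values were seen, *Ctnna3*, a catenin of heart and testis, had 2 counts in WT and 10.5, 5.21, 4.50 and 3.95 CPM in 5xFAD (ratio 108, 29.3 to 895), and *Asb11*, a ubiquitin ligase adaptor, had 2 and 8.64, 10.7, 5.76 and 3.68 CPM (ratio 130, 35.4 to 1080). Counting intervals leave out the spread between libraries.

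Some risers are best known from other cells. The kinesin motors *Kif1a* and *Kif5a*, which carry cargo along axons, rose from 1.88 to 4.22 to 10.3 to 25.3 CPM (2.67 (SE 0.48, adjusted p = 0.00737)) and from 0.993 to 3.52 to 10.2 to 22.6 CPM (2.62 (SE 0.52, adjusted p = 0.0153)). *Pacsin1*, of synaptic vesicle recycling, and *Syngr1*, a synaptic vesicle membrane protein, rose by 2.31 and 1.57 on the log2 scale (adjusted p = 0.0167 and 0.00536). The 11 neuron markers summed to 7.70 to 16.2 CPM in WT and 6.66 to 10.7 CPM in 5xFAD. *Gfap*, the intermediate filament of astrocytes, rose from 0.352, 1.03, 0.221 and 0.321 CPM in WT to 4.55, 11.1, 6.30 and 19.1 CPM in 5xFAD (4.32 (SE 0.76, adjusted p = 0.00564)). The 9 astrocyte markers, *Gfap* included, summed to 238 to 358 CPM in WT and 199 to 258 CPM in 5xFAD. Most of that sum was *Slc1a3*, a glutamate transporter, with 205 to 311 CPM in WT and 139 to 199 CPM in 5xFAD (−0.58 (SE 0.27, adjusted p = 0.452)). Of the 8 astrocyte markers tested, 5 had a positive change (median 0.58), *Gfap* was the only one called by edgeR or DESeq2, and the paired fit called 5 higher and 1 lower. The part of astrocyte RNA in the risers was not tested. These genes were named after their values were seen, except *Gfap* and *Slc1a3*, which are on the marker list. Cytokine receptor chains were also among the risers outside the lists: *Il3ra* changed by 2.53 (SE 0.41, adjusted p = 0.00320), *Crlf2* by 1.64 (SE 0.27, adjusted p = 0.00378) and *Csf2ra* by 1.07 (SE 0.29, adjusted p = 0.0863). They bind interleukin 3, thymic stromal lymphopoietin and GM-CSF, respectively, and were named after their values were seen.

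The fallers were fewer than the risers and their changes smaller. *Tmem44*, a transmembrane protein (chr16:30511855-30550842, minus strand), had the lowest p, with 24.8, 38.9, 35.4 and 44.5 CPM in WT and 6.83, 10.01, 11.7 and 17.2 CPM in 5xFAD (−1.65 (SE 0.29, adjusted p = 0.00597)). *Hlf*, a PAR bZIP transcription factor whose promoter is shown above, had 9.68, 8.99, 13.6 and 21.5 CPM and 3.19, 3.98, 4.50 and 3.27 CPM (−1.85 (SE 0.34, adjusted p = 0.00822)). Of the 17 circadian clock and PAR bZIP genes tested it alone was called by edgeR, DESeq2 called 2 higher and 1 lower, and the median of the list was −0.66, the lowest of the 33 lists. In the paired fit 2 rose and 5 fell. *Cass4* and *Nedd9*, related CAS scaffold proteins of focal adhesions, fell from 71.8, 47, 35 and 40.8 CPM to 19.7, 15.2, 18 and 18.2 CPM (−1.45 (SE 0.27, adjusted p = 0.00993)) and from 9.41 to 17.4 to 2.88 to 5.18 CPM (−1.61 (SE 0.31, adjusted p = 0.0118)). They were the only calls among 14 genes of the CAS scaffold and focal adhesion list (median −0.43), in which the paired fit called 1 higher and 3 lower. *Cass4* is also among 31 tested AD risk genes, of which *Apoe* (1.63 (SE 0.34, adjusted p = 0.0187)) and *Trem2* rose, and the median of those was −0.21, with 6 higher and 4 lower in the paired fit. *Apoe* was at 2444, 4361, 4303 and 4257 CPM in WT and 12150, 10970, 13480 and 10870 CPM in 5xFAD, without overlap, but with no filter on low counts its adjusted p was 0.206. Among 15 integrins, *Itga4* fell (−1.48 (SE 0.37, adjusted p = 0.0604)) and *Itgax* rose. The fall of *Itga4* was not called with the replicate block in the fit of all libraries. Without WT replicate 3 or 4 or 5xFAD replicate 1, 2 or 4 it was also not called (adjusted p = 0.108 to 0.298). In this list the paired fit called 3 higher and 6 lower.

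Further fallers of low p were outside the lists. *Adcy8*, a calcium-stimulated adenylyl cyclase, had 7.22, 5.82, 5.29 and 12.4 CPM in WT and 0.758, 1.51, 0.720 and 3.13 CPM in 5xFAD (−2.30 (SE 0.45, adjusted p = 0.0137)). *Slc39a12*, a zinc importer, had 12.5, 23.2, 25.9 and 26.3 CPM and 4.25, 4.66, 6.83 and 6.81 CPM (−1.96 (SE 0.39, adjusted p = 0.0144)). *P2rx1*, an ATP-gated channel that was not on the purinergic list, had 11.6, 28.5, 35.1 and 25.1 CPM and 4.85, 11.5, 8.45 and 8.17 CPM (−1.60 (SE 0.32, adjusted p = 0.0167)). In these 3 genes each 5xFAD library lay below each WT library, and WT replicate 1 was the lowest of its group for *Slc39a12* and *P2rx1*. *Hepacam2* (−2.09 (SE 0.42, adjusted p = 0.0150)), an immunoglobulin family adhesion protein, and *Slc26a11* (−1.87 (SE 0.38, adjusted p = 0.0166)), a sulfate transporter, fell in the same way. *Bank1*, a scaffold of B cell receptor signaling, fell from 92.2 to 163 to 38.7 to 53.2 CPM (−1.47 (SE 0.31, adjusted p = 0.0202)), and *Myo1g*, a myosin of blood cells, from 36.3 to 50.4 to 11.8 to 26.3 CPM (−1.40 (SE 0.29, adjusted p = 0.0181)). Neither *Myo1g* nor *Fchsd2* was called without both libraries numbered 1. *Fchsd2* was also not called without WT replicate 3 or 4 or without any 1 of the 5xFAD libraries (adjusted p = 0.108 to 0.242). Without 5xFAD replicate 4, neither *P2rx1* (adjusted p = 0.116) nor *Bank1* (adjusted p = 0.157) was called. The more abundant fallers also included *Fchsd2*, of endocytosis (108 to 177 to 50.9 to 67.5 CPM; −1.08 (SE 0.26, adjusted p = 0.0492)), and *Mtss1*, an I-BAR protein (68.9 to 118 to 33.9 to 54.5 CPM; −1.22 (SE 0.28, adjusted p = 0.0375)). The call of *Mtss1* was lost without WT replicate 4 or without 5xFAD replicate 2, 3 or 4 (adjusted p = 0.132 to 0.144). Further fallers, named after their values were seen, were *Ahr*, the aryl hydrocarbon receptor (−1.92 (SE 0.43, adjusted p = 0.0334)), *Aoah*, which inactivates endotoxin (−1.60 (SE 0.35, adjusted p = 0.0300)), *Cd38*, an NAD-consuming ectoenzyme (−1.53 (SE 0.37, adjusted p = 0.0513)), and *Nfkbid*, a nuclear regulator of NF-κB (−1.13 (SE 0.25, adjusted p = 0.0325)). In prostaglandin and leukotriene metabolism 2 of 17 fell and none rose (median −0.44), and 1 rose and 4 fell in the paired fit. These were *Ptger3*, with the limits given above, and *Ptgs2*, the inducible cyclooxygenase (2.35 to 5.81 to 0.899 to 2.06 CPM, −1.44 (SE 0.39, adjusted p = 0.0993)). The call of *Ptgs2* was lost without both libraries numbered 1. It was also lost without WT replicate 1, 2 or 3 or without any 1 of the 5xFAD libraries (adjusted p = 0.150 to 0.332).

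Homeostatic genes moved little one by one. Of 30, edgeR called 1 lower and none higher and DESeq2 2 lower, with a median of −0.34 against −0.15 over all genes, and 22 of the 30 had a negative change. The 1 call by edgeR was lost (0 lower) with DESeq2 size factors, with no filter on low counts and without both libraries numbered 1. The paired fit called 5 higher and 8 lower. *Tmem119* was at 814, 4132, 3704 and 3016 CPM in WT and 527, 2243, 2056 and 2740 CPM in 5xFAD (−0.62 (SE 0.55, adjusted p = 0.729)), and *Cx3cr1* at 3252 to 6265 and 2384 to 6046 CPM (−0.43 (SE 0.35, adjusted p = 0.703)). For both the ranges overlapped, and replicate 1 was the lowest library of both genotypes. *Tmem119* and *Cx3cr1* were named after their values were seen. Of 32 microglial transcription factors, *Hif1a* and *Rxrg*, a retinoid X receptor (1.93 to 5.41 to 10.9 to 18.4 CPM; 2.10 (SE 0.44, adjusted p = 0.0202)), rose and none fell (median −0.27), while DESeq2 called 2 lower. The rise of *Rxrg* was not called without both libraries numbered 1. The paired fit called 7 in each direction.

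Genes of interferon response and antigen presentation were not called as higher. Over all 14513 genes tested, 1572 (10.8%) had an unadjusted p under 0.05 by edgeR, in either direction. Of 35 type I interferon-stimulated genes, edgeR called 0, with 6 at an unadjusted p under 0.05, all higher, and DESeq2 called 2. Their median was 0.48, and 32 of 35 had a positive change. The paired fit called 17 higher and 0 lower. The leading gene was *Zbp1*, a sensor of nucleic acids, at 19.9, 13.4, 14.8 and 11.6 CPM in WT and 79.6, 31.7, 29 and 17.8 CPM in 5xFAD (1.41 (SE 0.47, adjusted p = 0.222)), followed by *Slfn5* (1.17 (SE 0.40, adjusted p = 0.236)). In both, 5xFAD replicate 4 lay within the range of WT. Of 17 MHC class I genes, edgeR called 0 (6 at an unadjusted p under 0.05, all higher), DESeq2 called 1, and the paired fit 11 higher. *H2-Q7* had 21.8, 34.8, 47.5 and 24.5 CPM in WT and 180.0, 155, 52.7 and 33 CPM in 5xFAD (1.71 (SE 0.53, adjusted p = 0.177)), and *H2-M3* changed by 1.09 (SE 0.37, adjusted p = 0.237). Reads of *H2-Q7* and other H2-Q genes may have been split between near-identical copies. Of 12 MHC class II genes, *Ciita*, the transactivator of the class, fell (5.56 to 9.74 to 1.98 to 3.94 CPM; −1.26 (SE 0.34, adjusted p = 0.0891)), none rose by edgeR and 1 by DESeq2, and the median was 0.00, while the paired fit called 4 higher and 1 lower. The fall of *Ciita* was lost without the libraries numbered 1.

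Several other lists held no call by edgeR. Their counts at an unadjusted p under 0.05 stand beside 10.8% of all genes tested, in either direction. Of 17 complement genes 3 in each direction had an unadjusted p under 0.05 and DESeq2 called 1 lower. The lowest p was that of *Cd93* (−1.18 (SE 0.35, adjusted p = 0.148)), followed by *C1qc*, a C1q chain, at 4235 to 6146 CPM in WT and 6927 to 11060 CPM in 5xFAD (0.78 (SE 0.30, adjusted p = 0.332)). The 18 TGF-β genes had 1 in each direction at an unadjusted p under 0.05 and none by DESeq2, led by *Tgfbr3* (−1.75 (SE 0.70, adjusted p = 0.354)) and *Tgfb2* (1.62 (SE 0.69, adjusted p = 0.398)). The 15 iron genes had 2 higher and 1 lower at that level and 1 higher by DESeq2, led by the ferritin *Fth1* (2415 to 5041 and 4906 to 7782 CPM; 1.00 (SE 0.34, adjusted p = 0.234)) and the exporter *Slc40a1* (−1.40 (SE 0.49, adjusted p = 0.257)). For 23 NADPH oxidase and antioxidant genes both numbers were 1 higher, led by *Prdx1* (1.05 (SE 0.36, adjusted p = 0.236)) and *Gpx4* (0.70 (SE 0.34, adjusted p = 0.473)). The 30 early response genes had 1 higher and 6 lower at an unadjusted p under 0.05 and 1 lower by DESeq2, with *Nr4a1* (−1.59 (SE 0.53, adjusted p = 0.215)) and *Csrnp1* (−1.04 (SE 0.35, adjusted p = 0.230)) leading, and the 13 heat shock genes 1 higher and 3 lower and 1 lower by DESeq2, with *Hspa1a* (−1.19 (SE 0.37, adjusted p = 0.188)) and *Dnajb1* (−0.80 (SE 0.33, adjusted p = 0.366)) leading. Early response genes are known to rise during cell isolation. Their sum ran from 8410 to 11600 CPM in WT and from 4240 to 12300 CPM in 5xFAD. In the paired fit the calls higher and lower were 4 and 2 for complement, 2 and 1 for TGF-β, 3 and 4 for iron, 9 and 1 for antioxidant, 2 and 9 for early response and 1 and 4 for heat shock genes.

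Cell cycle genes rose in part. Of 29, 4 rose and none fell, the median was 0.61, and 26 had a positive change. *Birc5* (survivin) had 8.45, 9.59, 8.94 and 7.60 CPM in WT and 43.7, 21.2, 25.2 and 13.5 CPM in 5xFAD (1.58 (SE 0.34, adjusted p = 0.0256)), and *Cdk1*, the mitotic kinase, had 7.75, 21, 16.3 and 13.3 CPM and 66.3, 46.1, 51.8 and 34.2 CPM (1.76 (SE 0.41, adjusted p = 0.0424)). *Cenpe* (1.48 (SE 0.33, adjusted p = 0.0316)) and *Ube2c* (1.56 (SE 0.39, adjusted p = 0.0588)) were the others. In all 4 genes 5xFAD replicate 1 was the highest library and replicate 4 the lowest of its group. None of the 4 calls held without both libraries numbered 1, or without 5xFAD replicate 1 alone (adjusted p = 0.102 to 0.222). The paired fit called 14 higher and none lower.

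Markers of some other CD11b+ cells were lower in the 5xFAD libraries. The 9 markers of border-associated macrophages summed to 1080 to 1750 CPM in WT and 626 to 860 CPM in 5xFAD, without overlap, and 3 of them fell: *Mrc1*, *Lyve1* (43.7 to 71.5 to 13.8 to 30.6 CPM; −1.28 (SE 0.30, adjusted p = 0.0442)) and *F13a1* (119.6 to 244 to 43.9 to 115 CPM; −1.46 (SE 0.39, adjusted p = 0.0863)). The falls of *Mrc1* and *F13a1* were not called without both libraries numbered 1. *Mrc1* was also not called without WT replicate 4 or any 1 of the 5xFAD libraries (adjusted p = 0.113 to 0.172). The same held for *F13a1* without WT replicate 2, 3 or 4 or 5xFAD replicate 1, 2 or 3 (adjusted p = 0.106 to 0.315). All 9 changes were negative (median −1.15). The 9 monocyte markers, which share *F13a1*, summed to 408 to 547 CPM in WT and 181 to 299 CPM in 5xFAD. These sums did not overlap, but without *F13a1* they did. All 7 tested monocyte markers had a negative change (median −0.76), and *F13a1* was the only 1 called by edgeR. In this bulk RNA, fewer cells of a type and less RNA per cell cannot be told apart, and the part of these cells in the fall of other genes was not tested. Neutrophil markers ran from 1140 to 3640 CPM in WT and from 786 to 2120 CPM in 5xFAD. All 10 of them had a negative change (median −0.74). None was called by edgeR, 2 were called lower by DESeq2 and 5 in the paired fit. All 7 tested T or NK cell markers were also negative (median −0.76), with 0 called by edgeR or DESeq2. The paired fit tested 5 of them and called 2 lower. Of 8 endothelial markers 1 fell (*Pecam1*, −1.55 (SE 0.34, adjusted p = 0.0310)). The choroid plexus sum varied from 18.1 to 1730 CPM within WT and from 296 to 1470 CPM within 5xFAD.

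**Figure D4:**
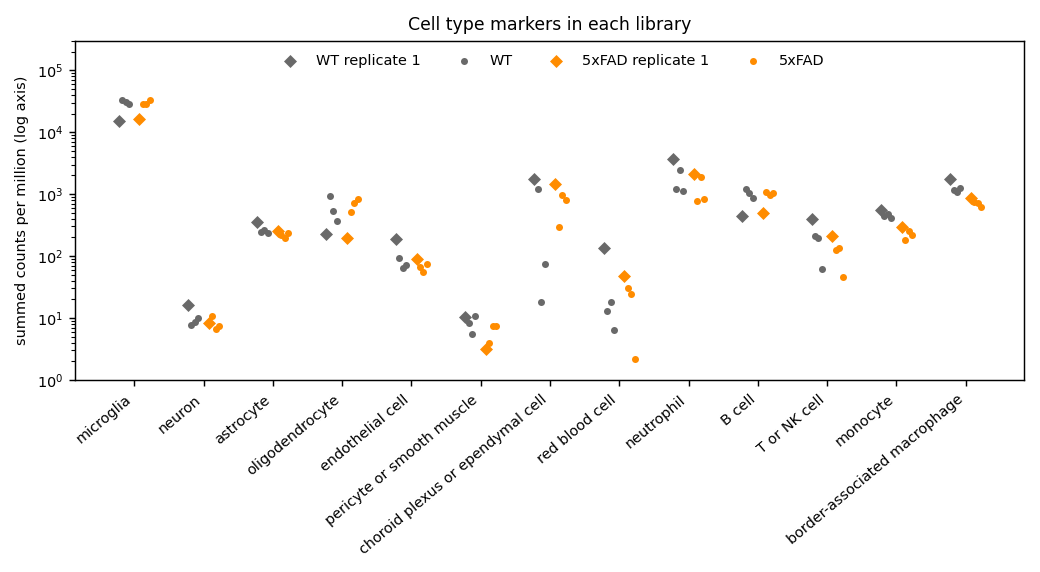
Summed CPM of the markers of each cell type (y axis, log axis) in the 4 WT libraries (dark grey) and 4 5xFAD libraries (orange), with replicate 1 of each genotype as a diamond. Border-associated macrophage and monocyte sums are lower in each 5xFAD library than in each WT library, the monocyte sums only with *F13a1*, which both lists hold. Microglia sums overlap and are lowest in replicate 1 of each genotype.

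A property of the libraries also leaned with genotype, although 5xFAD replicate 4 lay within the range of WT and the difference was not tested. The slope of log2 expression on transcript length, centred over all libraries, was −0.061 to 0.204 in WT and −0.265 to −0.0235 in 5xFAD, with replicate 4 the highest of both. The median summed exon length was 3670 bases for risers, 5651 for fallers and 3821 for all genes tested. With this slope as a covariate, 255 genes rose and 112 fell, 205 of the 304 calls were shared, and 19 of 82 named calls were lost, most of them also lost without the libraries numbered 1. Of 82 named genes that passed, 27 have exons that overlap those of another gene, 24 of them only on the other strand. The strand setting of the counting is not given in the sources used here, so reads of such pairs cannot be told apart.

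The same transgenes were compared in the libraries labelled Card9-/- and Card9-/-5xFAD. No library is shared with the comparison above, but the same fit, with a shared estimate of the spread, gave both. Their calls are therefore not independent. In these libraries the label was not met by a loss of *Card9* reads, with 16.7 to 34.8 CPM in Card9-/- and 9.73 to 33.7 CPM in Card9-/-5xFAD. The reads are counted over the whole gene, so they cannot show whether a part of it is missing. All 228 risers and all 76 fallers had the same sign there. Of the risers, 173 (75.9%) also passed, where 1.49% of all genes passed as higher, and of the fallers 32 (42.1%), where 0.482% passed as lower. The median change of the risers was 2.29 in 5xFAD against WT and 2.07 in Card9-/-5xFAD against Card9-/-, and that of the fallers −1.49 and −1.27. The difference of the responses was tested as an interaction: edgeR called 0 of 14513 genes, with 78 at an unadjusted p under 0.05, and DESeq2 called 1 (*Gnb4*). Of the 64 risers below 1 CPM in WT, 48 passed again, among them *Mamdc2* (8.37) and *Yipf7* (8.21). Among fallers, *Tmem44* (−1.74, adjusted p = 0.00421) and *Ednrb* (−1.74, adjusted p = 0.0169) passed again, while *Nedd9* (−0.35, adjusted p = 0.705) and *Cass4* (−0.76, adjusted p = 0.227) did not.

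**Figure D5:**
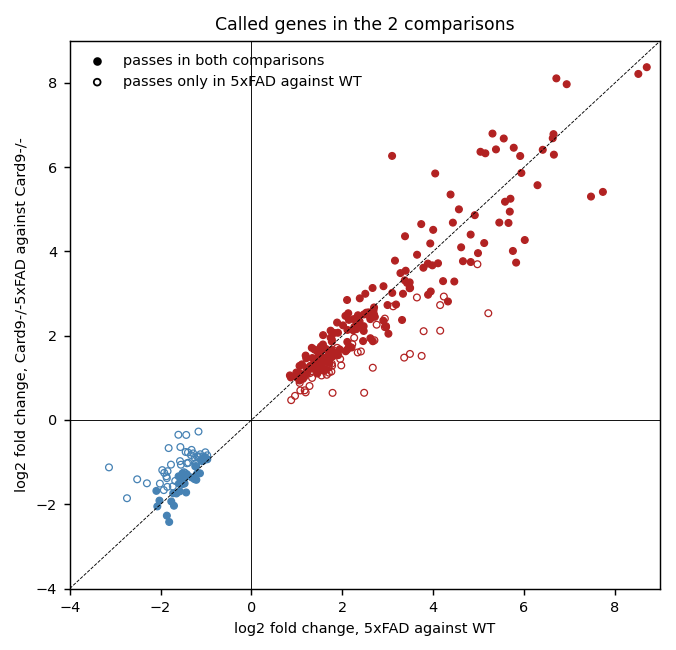
Log2 fold change of the 304 called genes between 5xFAD and WT (x axis) and between Card9-/-5xFAD and Card9-/- (y axis), with risers in red, fallers in blue, filled points for genes that pass in both comparisons, open points for genes that pass only in 5xFAD against WT, and a dashed line of equal change. All points have the same sign on both axes, and 55 of the 228 risers and 44 of the 76 fallers are open.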

How the data were processed

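RNA of CD11b+ cells from the brains of mice was sequenced in 16 libraries, 4 per genotype, and the 8 WT and 5xFAD libraries are described here. The authors aligned the reads to mm10 with HISAT2, filtered them with SAMtools and counted them per gene with HTSeq, and deposited the read counts as whole numbers, without normalization. Versions and the strand setting are not given in the sources used here. Symbols altered by R were restored, and positions are from GENCODE M21 (GRCm38, the assembly of mm10).

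Counts were tested with edgeR 4.0.16 in R 4.3.3 (quasi-likelihood F test, TMM, filterByExpr with a minimum count of 10) in a fit of all 16 libraries with 4 groups, so that the spread is shared (12 residual degrees of freedom). P-values were adjusted by Benjamini-Hochberg over the 14513 genes, with a threshold of 0.1. The SE comes from the change and its F statistic. CPM uses TMM library sizes. The fit is that of the study's 4 genotypes, and DESeq2 1.42.0, the study's tool, was an alternative, as were sva 3.50.0, other filters and scalings, and leaving out each library. A block by replicate number was used because same-numbered WT and 5xFAD libraries deviated together over genes (correlations of 0.708, 0.275, 0.293 and 0.537 for replicates 1 to 4). The labels do not say what a number marks, however. WT replicate 2 correlated best with 5xFAD replicate 4 (0.433), and WT replicate 3 with 5xFAD replicate 2 (0.404). No 2 libraries of a genotype were copies. On counts simulated for 5xFAD against WT, with known changes, edgeR called 3 of 70 genes changed 2-fold, 28 of 56 changed 4-fold, 57 of 68 changed 8-fold and 10 of 14027 unchanged genes, so that this fit, which does not use the pairing, mostly missed changes of 2-fold.

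The comparison and the gene lists, written from general knowledge, were chosen with earlier results of these data known. Named are the 10 genes of lowest p in each direction, up to 4 called genes per list and direction (where none was called, the 2 of lowest p), the 8 of lowest p in each direction in no list, the 6 of highest mean CPM in each direction, *App*, *Thy1* and *Card9*, and markers, and some genes that the rule names are not reported here. Other genes are said to be named after their values were seen. Promoters are from RefSeq (GRCm38.p6). A counting interval is an exact 95% interval and covers counting error only, as does the floor of 3 counts.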

Additional observations from a re-analysis of the deposited data

Results flagged for a closer look

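Among 128 groups of 4 libraries checked for a value far from the other 3, 10 were flagged, and chance alone flags about 1 in 20. WT replicate 1 was apart in 3 measures, with *Apoe* at 2440 CPM against 4260 to 4360 CPM (0.26% of counts against 0.45% to 0.471%), ribosomal protein counts at 4.14% against 1.49% to 1.86%, and red blood cell markers at 133 CPM against 6.31 to 18.0 CPM. 5xFAD replicate 4 was apart for *Itgax* (215 CPM against 143 to 150 CPM), for *F13a1* (115 CPM against 43.9 to 48.3 CPM) and for the slope on transcript length (−0.0235 against −0.265 to −0.239). WT replicate 4 was apart for the same slope (0.204 against −0.061 to −0.0308) and for *Fchsd2* (177 CPM against 109 to 116 CPM), and 5xFAD replicate 1 for *Mtss1* (54.4 CPM against 33.9 to 36.7 CPM).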

How the results depend on the processing

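The number of genes called depended on the processing, and the signs of the called genes did not. The alternatives refit the same counts or a part of them, so a kept sign is a description. All 304 genes kept their sign wherever they were tested. The 82 named genes that passed kept theirs in all 2347 results of 29 alternatives, passing in 2082 and not in 265. *App* and *Card9*, which were not called, turned positive with the length slope as a covariate (0.27 and 0.17). Counts of 304 genes, 228 higher and 76 lower, were obtained with 75.0% higher. No filter on low counts gave 208 genes (19 lower, 90.9% higher), at least 10 counts in every library 171 (132 and 39), DESeq2 565 (404 and 161), DESeq2 on only the 8 libraries 669 (512 and 157), edgeR on only the 8 libraries 40 lower (86.4% higher), 1 surrogate variable 2029 (1154 and 875, 56.9% higher), an adjusted p of 0.05 222 genes (43 lower), and the replicate block on only the 8 libraries, chosen after the data were seen, 3338 (2341 and 997). The block in the fit of all 16 libraries gave 306 genes (228 and 78), of which 276 were shared, and among the named calls lost only *Itga4*. Of the named calls, edgeR on only the 8 libraries lost 10, leaving out both libraries numbered 1 lost 21, no filter on low counts lost 26 and leaving out WT replicate 4 lost 20. Leaving out WT replicate 1 and 5xFAD replicate 1 gave 199 (159 and 40), also chosen after the data were seen. Leaving out 1 library gave 164 (without WT replicate 4) to 386 genes (without Card9-/- replicate 4), 142 to 278 higher and 22 to 108 lower. Without WT replicate 2 or 3, or 5xFAD replicate 2 or 3, the totals were 196, 191, 195 and 195, and without 5xFAD replicate 1 or 4 the fallers were 46 each. The interaction gave 1 gene (*Gnb4*) by DESeq2 and 0 to 1 genes with 1 library left out. The cause of these differences was not tested. In simulated counts without pairing, edgeR called 3 of 70 changes of 2-fold and DESeq2 15 of 69.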
